A study of Homo sapiens with 8 samples.

Results

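The miR-378 family was examined in HCT116, a cell line from a human colorectal carcinoma, as 8 named entries among the 2026 microRNA (miRNA) entries counted by small RNA sequencing. The entries were chosen by name: both arms of the miR-378a hairpin (hsa-miR-378a-3p and hsa-miR-378a-5p) and the related hsa-miR-378c, hsa-miR-378d, hsa-miR-378e, hsa-miR-378f, hsa-miR-378g and hsa-miR-378i, written below without the species prefix. All 8 were present in the count table, 5 had enough reads to be tested, and the whole set held 0.318% and 0.569% of the reads of the CD44v6-positive samples, against 0.300% and 0.614% of those of the CD44v6-negative samples.

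The cells were HCT116 spheroids grown without serum on surfaces of low attachment, stained for CD44v6 (a variant of CD44, the receptor for hyaluronan, made by alternative splicing) and sorted into a CD44v6-positive and a CD44v6-negative population of the same line, with dead cells removed by propidium iodide. No drug or genetic change is given for either population, and sorting a spheroid culture of 1 line by 1 surface marker is the whole contrast. The series compared the populations to find miRNAs of cancer stem-like cells. The labels list 8 sequencing entries that carry 4 combined identities, and the deposited columns are these identities, so n was 2 samples per group. Whether the samples are from separate cultures is not stated, and p-values rest on the spread of these samples alone, and that spread may be technical.

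A miRNA hairpin is cut into a 5p and a 3p arm, and the arm loaded into an Argonaute protein represses messenger RNAs that pair with its seed (bases 2 to 8). MIR378A lies inside PPARGC1B, the gene of the transcriptional coactivator PGC-1 beta, which promotes mitochondrial biogenesis and fatty acid oxidation. In mice the arms of miR-378a are known to counterbalance PGC-1 beta in energy metabolism, and the 5p arm was reported to push breast cancer cells towards glycolysis by repressing ESRRG and GABPA. The lettered relatives are miRBase entries from other loci whose mature sequence is nearly that of miR-378a-3p, and their own functions are little studied.

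The mature sequences decide which reads can be told apart. RefSeq (GRCh38.p14) gave a mature sequence for 6 of the 8 entries, miR-378d and miR-378e being named only, and they are shown 5′ to 3′ with the seed in capitals.
miR-378a-3p: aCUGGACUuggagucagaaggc
miR-378c: aCUGGACUuggagucagaagagugg
miR-378f: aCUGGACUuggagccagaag
miR-378i: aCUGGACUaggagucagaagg
miR-378g: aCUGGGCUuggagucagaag
miR-378a-5p: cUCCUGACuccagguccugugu

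miR-378a-3p, miR-378c, miR-378f and miR-378i share the seed CUGGACU, which 7 of the 2370 human mature miRNAs in the table carry, the others being miR-378b, miR-378h and miR-422a. miR-378d and miR-378e have no mature sequence in that table, so their seeds were not compared. miR-378g has another seed, and miR-378a-5p, from the opposite arm, has an unrelated one. Positions were counted from 1 at the 5′ end, with the base of miR-378a-3p first. miR-378c (25 bases) is identical to miR-378a-3p (22 bases) over its first 20 bases and differs by G21A and C22G before it runs 3 bases longer. miR-378f differs by U14C over 20 bases, miR-378i by U9A over 21 bases, and miR-378g by A6G over 20 bases, which falls in the seed. A read that ends at base 20 or earlier therefore has the same letters in miR-378a-3p and miR-378c, while miR-378f, miR-378g and miR-378i are each 1 mismatch away.

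The hairpins of the most similar loci listed in RefSeq show the shared stretch in a longer context. Capitals mark where it equals miR-378a-3p from its first base.
MIR378A: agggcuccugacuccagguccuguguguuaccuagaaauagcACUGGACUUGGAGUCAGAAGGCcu
MIR378C: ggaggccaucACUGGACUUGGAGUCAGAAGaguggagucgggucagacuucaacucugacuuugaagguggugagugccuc
MIR378E: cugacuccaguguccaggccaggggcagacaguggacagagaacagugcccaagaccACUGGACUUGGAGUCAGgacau

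MIR378E carries the first 17 bases of miR-378a-3p. Of the 1562 hairpins in the table, 3 held its first 17 bases, 2 held its first 20, and 1, MIR378A itself, held its first 21. The table does not list MIR378B, MIR378D1 or MIR378J, so these counts leave them out. The sources used here give neither the mismatch setting nor the handling of reads with several matches. Reads therefore cannot be assigned with certainty between miR-378a-3p, miR-378c and miR-378e. miR-378d had no mature sequence here and MIR378D1 was not among the hairpins searched. Its likeness to miR-378a-3p was thus not compared, and its reads cannot be taken as distinct.

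These loci are scattered over GRCh38 (GENCODE release 29). MIR378A is at chr5:149732825-149732890 on the plus strand, in an intron of all 4 PPARGC1B transcripts that span it and 2527 bases downstream of the annotated gene start. MIR378E is at chr5:170028488-170028566 in an intron of DOCK2, and MIR378D1, a hairpin from which miR-378d can come besides MIR378D2, is at chr4:5923275-5923328 in an intron of C4orf50. MIR378C (chr10:130962588-130962668) and MIR378F (chr1:23929070-23929147) lie outside annotated genes. MIR378G (chr1:94745860-94745900) lies in an intron of SLC44A3-AS1, and MIR378I (chr22:41923222-41923297) overlaps an exon of TNFRSF13C.

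miR-378a-3p carried nearly all reads of the family. It was counted 2819 and 859 times in the CD44v6-positive samples, against 21923 and 26505 times in the CD44v6-negative samples. Its share of the reads of all 8 entries was 96.3% (95% exact binomial interval 95.6 to 97.0) and 97.7% (96.5 to 98.6) in the CD44v6-positive samples, against 92.6% (92.2 to 92.9) and 94.1% (93.8 to 94.3) in the CD44v6-negative samples, so the groups did not overlap. Intervals of this kind hold for counting error alone, because PCR copies are not separate molecules. By reads it ranked 51 and 35 among the miRNAs detected in the CD44v6-positive samples, and 50 and 39 in the CD44v6-negative samples.

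Levels are given in CPM, the reads of a miRNA per 1000000 reads of the library, scaled by TMM, a method that corrects library size for composition. miR-378a-3p stood at 3042 and 4477 CPM in CD44v6-positive samples 1 and 2, against 4194 and 4806 CPM in CD44v6-negative samples 1 and 2. The groups overlapped, since CD44v6-positive sample 2 lay between the CD44v6-negative samples. The means were 3759 ± 1014 CPM and 4500 ± 432 CPM (SD, n = 2 each), a log2 fold change of -0.26 ± 0.44 (SE) with an adjusted p of 0.712 in edgeR's quasi-likelihood test. The difference was smaller than its error, and the value stood 0.05 above the median log2 fold change of -0.31 over all 570 tested miRNAs. As a share of raw reads the family was near the same level in the samples numbered 1 and higher in those numbered 2, whichever population they came from.

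**Figure D1:**
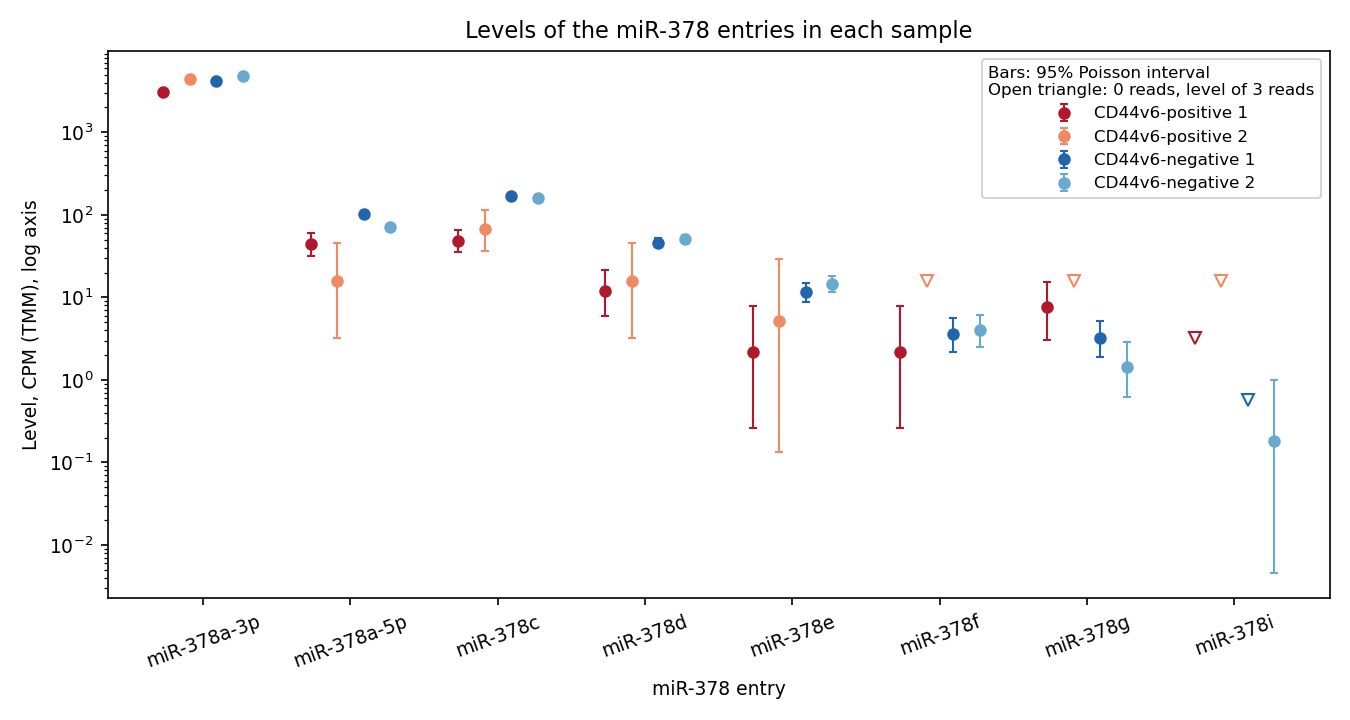
Level of each of the 8 entries in CPM scaled by TMM (log axis) in each sample, with CD44v6-positive samples in reds and CD44v6-negative samples in blues, 95% Poisson intervals as bars and open triangles at the level of 3 reads where a sample had 0 reads. miR-378a-3p lies between 3042 and 4806 CPM in all 4 samples, and miR-378a-5p, miR-378c, miR-378d and miR-378e have both CD44v6-positive points below both CD44v6-negative points.

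miR-378c, miR-378d, miR-378e and miR-378a-5p were lower in both CD44v6-positive samples as measured, and none passed an adjusted p under 0.05. miR-378c had 45 and 13 reads in the CD44v6-positive samples, against 882 and 887 reads in the CD44v6-negative samples. In CPM these were 48.6 and 67.7 in the CD44v6-positive samples and 169 and 161 in the CD44v6-negative samples. Both CD44v6-positive values lay below both CD44v6-negative ones, and the Poisson interval of the shallowest sample (36.1 to 115.9 CPM) stayed under both CD44v6-negative values. For miR-378c the log2 fold change was -1.53 ± 0.56 (SE), with an unadjusted p of 0.0316 and an adjusted p of 0.135 in edgeR's quasi-likelihood test. It ran from -1.54 to -1.38 with 1 sample left out, where 1 group has 1 sample and so no spread of its own.

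miR-378d was read 11 and 3 times in the CD44v6-positive samples, against 240 and 281 times in the CD44v6-negative samples. Its levels were 11.9 and 15.6 CPM in CD44v6-positive cells and 45.9 and 50.9 CPM in CD44v6-negative cells. The groups did not overlap, although the 3 reads of CD44v6-positive sample 2 allow 3.22 to 45.7 CPM. The log2 fold change was -1.87 ± 0.65 (SE), with an unadjusted p of 0.0262 and an adjusted p of 0.130 in edgeR's quasi-likelihood test. It ran from -1.87 to -1.63 with 1 sample left out, again with 1 sample in a group.

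miR-378e, the entry from DOCK2, had 2 reads and 1 read in the CD44v6-positive samples, against 60 and 81 reads in the CD44v6-negative samples. This was 2.16 and 5.21 CPM in CD44v6-positive cells and 11.5 and 14.7 CPM in CD44v6-negative cells. Both CD44v6-positive counts were under the floor of 3 reads, which is 3.24 and 15.6 CPM in those samples. In CD44v6-positive sample 2 that floor was above both CD44v6-negative levels, so no difference was detectable in that sample. In CD44v6-positive sample 1 the upper end of the Poisson interval, 7.80 CPM, was below both. The lower level thus rests on CD44v6-positive sample 1, and the size of the difference is poorly known. The fitted log2 fold change was -2.15 ± 0.91 (SE, adjusted p = 0.173 in edgeR's quasi-likelihood test). Without CD44v6-positive sample 1 it was -1.45, and without CD44v6-negative sample 2 the entry had too few reads to be tested.

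miR-378a-5p, the other arm of the PPARGC1B hairpin, was read 41 and 3 times in the CD44v6-positive samples, against 542 and 390 times in the CD44v6-negative samples. The levels were 44.2 and 15.6 CPM in CD44v6-positive cells and 104 and 70.7 CPM in CD44v6-negative cells. The groups did not overlap, and the CD44v6-positive samples differed widely from each other. The log2 fold change was -1.43 ± 0.69 (SE), with an unadjusted p of 0.0799 and an adjusted p of 0.215 in edgeR's quasi-likelihood test. Its size depended on the CD44v6-positive samples, at -2.59 without sample 1 and -0.77 without sample 2.

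The entries miR-378f, miR-378g and miR-378i were too rare for the test. miR-378f had 2 and 0 reads in the CD44v6-positive samples and 19 and 22 reads in the CD44v6-negative samples. In CPM the CD44v6-negative samples were at 3.64 and 3.99, below the 15.6 CPM (3 reads) that a count of 0 still allows in CD44v6-positive sample 2, so no difference was detectable at this depth. miR-378g, the entry with the changed seed, had 7 and 0 reads in the CD44v6-positive samples and 17 and 8 reads in the CD44v6-negative samples, which is 7.55 CPM in CD44v6-positive sample 1 against 3.25 and 1.45 CPM in CD44v6-negative samples 1 and 2. miR-378i was seen as a single read, in CD44v6-negative sample 2.

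In edgeR, 0 (0%) of all 570 tested miRNAs passed an adjusted p under 0.05, and so did 0 of the 5 tested members. At an unadjusted p under 0.05, 100 miRNAs (17.5%) were lower and 74 (13%) higher in CD44v6-positive cells, and of the members miR-378c and miR-378d were among the lower ones. DESeq2 called 52 (8.81%) of the 590 miRNAs for which it gave an adjusted p, and limma-voom called 4 (0.702%) of 570; neither called a member. The groups did not overlap, with CD44v6-positive cells lower, in 4 of the 5 tested members and in 34.6% of all tested miRNAs, and the members' median log2 fold change was -1.53 beside -0.31 over all. These 5 are the members with more reads, most of which fell in the deeper CD44v6-negative libraries. miR-378e met the read filter only through the CD44v6-negative samples, where it was higher. Its lack of overlap holds for the levels as measured, since its 1 read in CD44v6-positive sample 2 also allows levels above both CD44v6-negative ones. Reads of miR-378c, miR-378d and miR-378e cannot be taken as distinct from those of miR-378a-3p, so the 4 are not a count of separate results. Among the 570, 124 miRNAs had a lower log2 fold change than miR-378c, 91 than miR-378d, 69 than miR-378e and 135 than miR-378a-5p, whereas 290 had a lower one than miR-378a-3p.

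**Figure D2:**
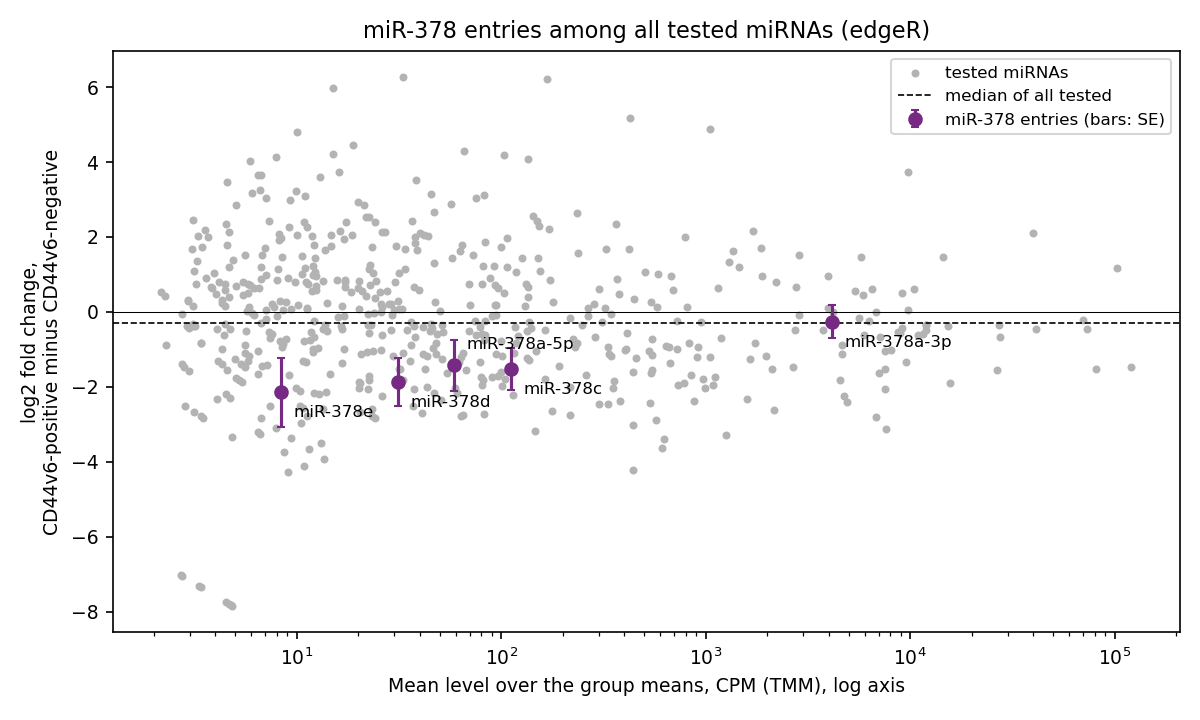
Log2 fold change (CD44v6-positive minus CD44v6-negative) against mean CPM (log axis) for the 570 tested miRNAs in grey and the 5 tested miR-378 entries in purple, with standard errors as bars and the median of all tested miRNAs, -0.31, as a dashed line. miR-378a-3p lies on the median line, and the 4 less abundant entries lie between -2.15 and -1.43, within the cloud of other miRNAs.

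The sign for miR-378a-3p depended on scaling. It was -0.26 with TMM and -0.25 with RLE (median-of-ratios) scaling, but 0.05 with upper quartile and 0.01 with total count scaling, while the median over all tested miRNAs was -0.31, -0.25, 0.04 and 0.01 in the same order. Without CD44v6-negative sample 2 it was 0.02. miR-378a-5p, miR-378c, miR-378d and miR-378e stayed negative under all 4 scalings, with miR-378c at -1.53, -1.50, -1.21 and -1.23 and miR-378d at -1.87, -1.82, -1.54 and -1.64 in that order.

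**Figure D3:**
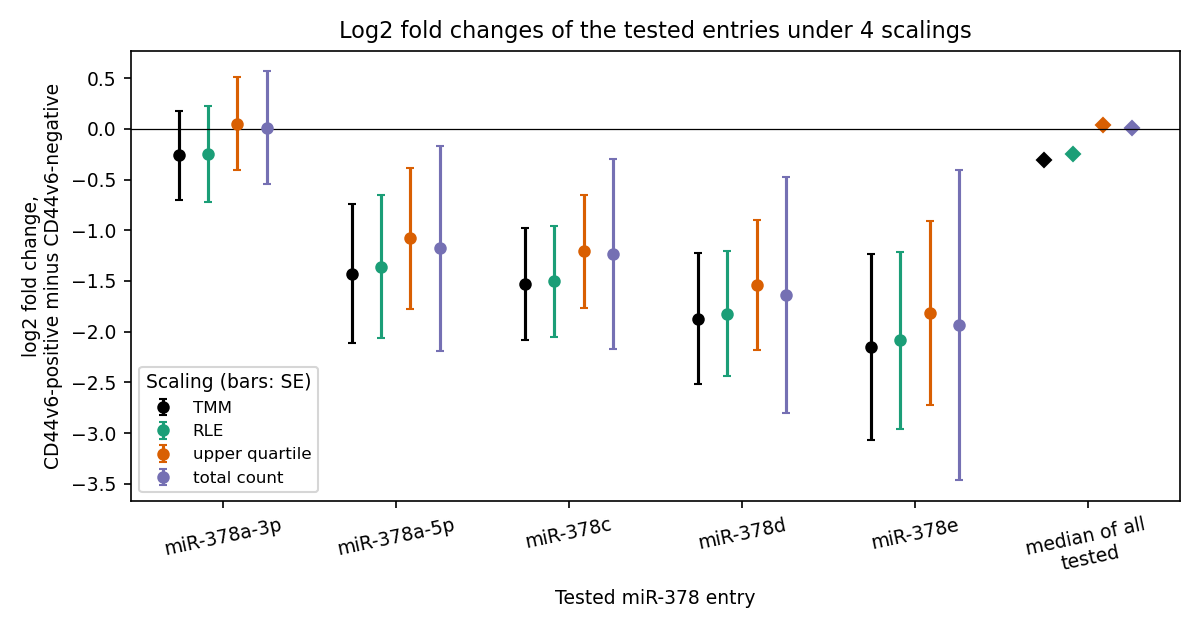
Log2 fold changes (CD44v6-positive minus CD44v6-negative) of the 5 tested entries under TMM, RLE, upper quartile and total count scaling, with standard errors as bars, and the median of all tested miRNAs as diamonds. miR-378a-3p follows the median across 0, and the other 4 entries stay below 0 under each scaling.

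Counting each entry against miR-378a-3p in the same library needs no scaling. For every 100 reads of miR-378a-3p there were 1.60 and 1.51 reads of miR-378c in the CD44v6-positive samples, against 4.02 and 3.35 in the CD44v6-negative samples, or 1.56 ± 0.0586 against 3.69 ± 0.478 (SD, n = 2 each). The samples of each group were closer to each other than to the other group. For miR-378d the ratios were 0.390 and 0.349 in the CD44v6-positive samples and 1.09 and 1.06 in the CD44v6-negative samples. For miR-378e they were 0.0710 and 0.116 in the CD44v6-positive samples and 0.274 and 0.306 in the CD44v6-negative samples. miR-378c, miR-378d and miR-378e thus kept a like order in each library while their ratio to miR-378a-3p was lower in both CD44v6-positive samples.

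For miR-378a-5p, the ratio of 5p to 3p arm was 1.45 and 0.349 per 100 in CD44v6-positive samples 1 and 2, against 2.47 and 1.47 in CD44v6-negative samples 1 and 2. Here CD44v6-positive sample 1 and CD44v6-negative sample 2 were nearly equal. Over the 569 other tested miRNAs, 26.7% had a ratio to miR-378a-3p that was lower in CD44v6-positive cells without overlap, and 29.5% a higher one. With 2 samples against 2, a two-sided exact permutation test cannot give a p below 0.333. With the reads of miR-378a-3p as library size in edgeR, chosen after seeing the data, the log2 fold changes were -1.24 ± 0.66 for miR-378c, -1.52 ± 0.69 for miR-378d, -1.77 ± 0.94 for miR-378e and -1.03 ± 0.79 for miR-378a-5p (SE), with adjusted p from 0.206 to 0.434 over all tested miRNAs.

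**Figure D4:**
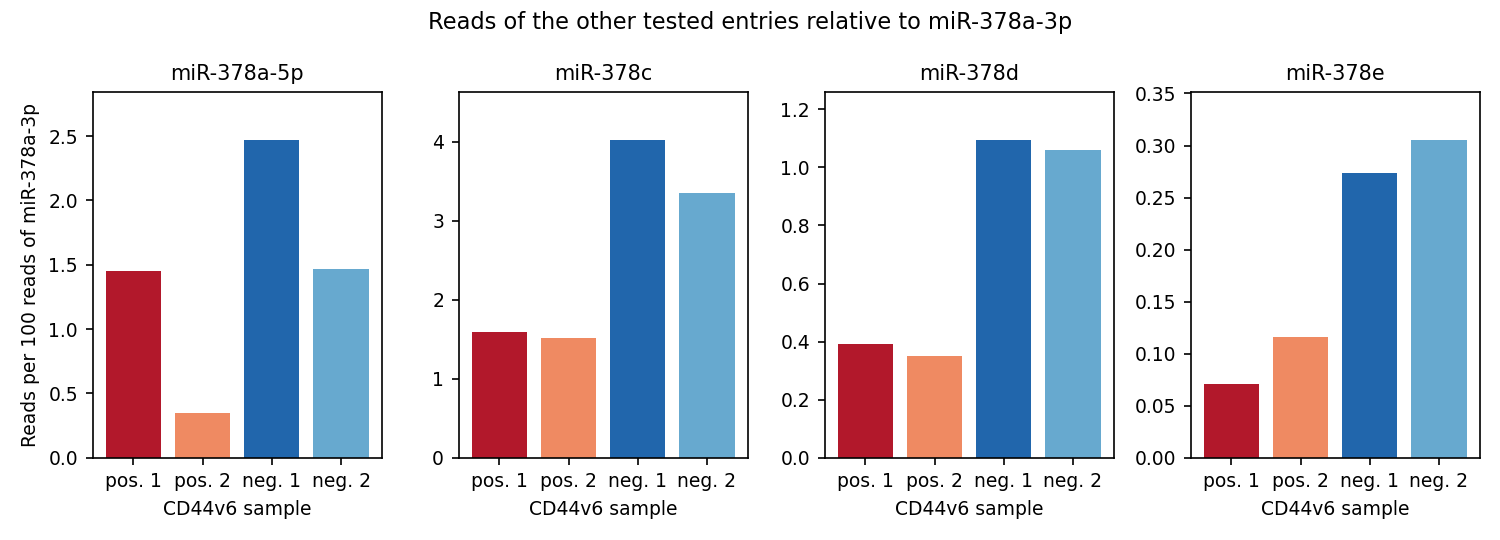
Reads of miR-378a-5p, miR-378c, miR-378d and miR-378e per 100 reads of miR-378a-3p in each sample, CD44v6-positive samples in reds and CD44v6-negative samples in blues, with separate axes that start at 0. miR-378c is at 1.60 and 1.51 in the CD44v6-positive samples and at 4.02 and 3.35 in the CD44v6-negative samples, and miR-378d separates in the same way.

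Read lengths and mismatches are not in the count table, so the part that reads of miR-378a-3p have in the counts of miR-378c, miR-378d and miR-378e was not tested. When all members but miR-378a-5p were summed into 1 entry, the log2 fold change was -0.32 ± 0.43 (SE). miR-378a-3p held nearly all reads of that sum, so the sum had to lie near its own value. The sum therefore cannot show how reads were assigned among the entries.

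The remaining relatives added almost nothing. miR-378b had 2 and 0 reads in the CD44v6-positive samples and 9 and 8 reads in the CD44v6-negative samples. miR-378h was read once in CD44v6-positive sample 1 and once in CD44v6-negative sample 1, with 0 reads in the others. miR-378j and miR-422a, which has the miR-378a-3p seed but differs by G10A and A12G, had 0 reads in every sample.

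Of the other miRNAs within genes of lipid and energy metabolism, miR-33a (SREBF2) and miR-33b (SREBF1), which repress cholesterol and fatty acid genes, and miR-103a-3p and miR-107 (PANK genes), which limit insulin signalling in mice, 0 of the 6 entries tested passed in edgeR. In 5 of the 6 the groups did not overlap, all lower in CD44v6-positive cells, beside 34.6% of all tested miRNAs, and the median log2 fold change of the 6 was -1.14 beside -0.31 over all. miR-33a and miR-33b are each counted with both arms, so the entries are not separate results. miR-33a-3p had 6 and 0 reads in the CD44v6-positive samples and met the read filter only through the CD44v6-negative samples, where it was higher. miR-33a-5p was at 48.6 and 15.6 CPM in CD44v6-positive cells, against 97.0 and 106 CPM in CD44v6-negative cells, and its log2 fold change was -1.55 ± 0.68 (SE, adjusted p = 0.182 in edgeR's quasi-likelihood test). miR-107 was at 998 and 829 CPM in CD44v6-positive cells, against 1942 and 1003 CPM in CD44v6-negative cells, so the lower CD44v6-negative sample was next to the higher CD44v6-positive one.

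The family, the metabolic list and the marker lists were left out of a search for levels most like those of miR-378a-3p over the 4 samples. By Euclidean distance in log2 CPM after each miRNA's own mean was subtracted, the 5 nearest of the other tested miRNAs were miR-625-5p (0.21), miR-16-2-3p (0.22), miR-550b-2-5p (0.27), miR-449a (0.32) and miR-3159 (0.36). All were far less abundant, the highest being miR-16-2-3p at 48.6 and 88.6 CPM in CD44v6-positive and 71.9 and 87.2 CPM in CD44v6-negative samples. Over 4 samples such likeness is a description of these libraries.

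Depth moved with the sort, at 919802 and 154481 reads in the CD44v6-positive samples, against 7880631 and 4592278 reads in the CD44v6-negative samples, so the effects of depth and of population cannot be told apart. All 5 markers of intestinal epithelium were present, and they summed to 10260 and 8422 CPM in CD44v6-positive and to 23130 and 11210 CPM in CD44v6-negative samples. Their log2 fold changes went both ways, at -2.41 for miR-141-3p, -0.61 for miR-200c-3p, 0.74 for miR-194-5p, 0.80 for miR-192-5p and 1.73 for miR-215-5p, with a median of 0.74, and 0 passed in edgeR. Of 6 markers of muscle, a tissue rich in miR-378, miR-133b and miR-206 had 0 reads in every sample, and the list summed to 9.71 and 5.21 CPM in CD44v6-positive and to 11.1 and 5.08 CPM in CD44v6-negative samples. The 5 blood markers summed to 3718 and 3455 CPM in CD44v6-positive and to 3020 and 1319 CPM in CD44v6-negative samples, most of it miR-486-5p. The 3 that were tested had log2 fold changes of 3.12 (miR-451a), 0.67 (miR-486-5p) and -0.37 (miR-142-3p), and 0 passed in edgeR. miR-451a was high in CD44v6-positive sample 2 alone, at 15.1 and 281 CPM in CD44v6-positive and 24.9 and 7.62 CPM in CD44v6-negative samples. The untested miR-144-3p was likewise highest there, at 36.5 CPM. miR-122-5p, abundant in liver and serum, was at 48.6 and 610 CPM in CD44v6-positive cells, against 4.59 and 3.99 CPM in CD44v6-negative cells, and its part in the results above was not tested.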

How the data were processed

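Small RNA libraries (Illumina kit, gel size selection) of sorted HCT116 cells were sequenced, per the labels' protocols. The authors deposited raw read counts per mature miRNA. They also deposited a normalized signal, which in each column was the raw count divided by 1 constant and was not used further. Per the submitters' processing notes, CASAVA 1.8.2, cutadapt 1.10, Bowtie 0.12.9, DESeq2 and build GRCh38 were used. The sources used here do not give their roles or the miRNA annotation. Depth ran from 154481 to 7880631 reads, and a count of 3 reads, the limit that 0 allows, was 0.544 to 15.6 CPM after TMM scaling.

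CD44v6-positive was compared with CD44v6-negative cells in edgeR 4.0.16 (R 4.3.3, estimateDisp, glmQLFit and glmQLFTest with legacy settings) after filterByExpr (minimum count 10, minimum total 15), with Benjamini-Hochberg adjustment over 570 of 2026 entries and a threshold of 0.05. Standard errors were taken as |log2 fold change| over the root of the F statistic. Alternatives used DESeq2 1.42.0 on the whole table, limma 3.58.1 (voom), other scalings and filters, each sample left out, and a replicate block. The procedure was run on counts simulated with the dispersions fitted to these data, which cannot show whether the model fits them. Members and lists were chosen with earlier results of these data known. Named were all members, 4 relatives, 6 miRNAs of metabolic genes, marker lists and the 5 entries outside these lists most like miR-378a-3p, with log2 CPM at a prior count of 2. Hairpin positions came from GENCODE release 29 and sequences from RefSeq GRCh38.p14.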

Additional observations from a re-analysis of the deposited data

How the results depend on the processing

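The count of miRNAs past an adjusted p of 0.05, 0 in edgeR, was 52 with DESeq2, 4 with limma-voom, 48 with total count scaling, 77 with no filter and 6 with the reads of miR-378a-3p as library size, stayed at 0 with RLE scaling, upper quartile scaling and the 10 CPM filter, and was 26 to 55 with 1 sample left out. With the sample number as a replicate block it was 228 of 570 tested miRNAs. Under that block miR-378a-5p (-1.57, adjusted p = 0.0370), miR-378c (-1.54, adjusted p = 0.0136) and miR-378d (-1.85, adjusted p = 0.0291) passed in edgeR. miR-378a-3p (-0.28) and miR-378e (-2.09, adjusted p = 0.102) did not. Passing was thus common among all miRNAs there, and the block leaves fewer residual degrees of freedom than the main fit. Deviations of same-numbered samples correlated at a Pearson r of 0.375 across tested miRNAs. The labels do not say that a number marks a shared culture, so the samples share only a number. miR-378a-3p changed sign with upper quartile (0.052) and total count scaling (0.0113) and ran from -0.33 to 0.0243 with 1 sample left out. No other tested member changed sign under any setting run, and outside the block none passed. miR-378e had no value with the 10 CPM filter or without CD44v6-negative sample 2. The share of miR-378a-3p among reads of the members was 3.70 percentage points higher in CD44v6-positive cells, 2.80 with miR-378a-5p left out of the total, and 2.94 to 4.45 with 1 sample left out. The cause of these changes was not tested. Depth limits miR-378f, miR-378g and miR-378i most, since 1 read is above 5 CPM in CD44v6-positive sample 2.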
